A study of Mus musculus with 2 samples.

Results

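The interleukin-1 (IL-1) family was followed across the cells of mouse cholangiocarcinoma (CCA), a cancer of bile duct-type epithelium, by 9 genes chosen by symbol out of 32589 genes listed in both libraries. They comprised the ligands *Il1a*, *Il1b*, *Il18* and *Il33*, the antagonist *Il1rn*, the receptor chains *Il1r1*, *Il18r1* and *Il1rl1*, and the decoy receptor *Il1r2*. All 9 symbols were found. Hydrodynamic tail vein injection, which brings plasmids into hepatocytes, started the tumors, here a pair that encodes NICD, the active fragment of Notch, and a membrane-anchored AKT (myr-AKT). The animals of both libraries were shYT, that is, they carried shRNAs that target *Yap1* and *Wwtr1*, which encodes TAZ, and that doxycycline switches on in all tissues through the CAG-driven transactivator rtTA3. Doxycycline was given from day 25 after injection, PBS or an anti–PD-1 antibody (clone RMP1-14) on days 26, 29 and 32, and tumor-bearing livers were analyzed on day 33. The comparison asks how the tumor microenvironment differs when immune checkpoint blockade is added to YAP/TAZ depletion. Both libraries carry the depletion, so its own effect was not compared, and the shRNA line, the sex, the number of animals and any pooling are not given by the labels, although the study counts several per group.

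IL-1α and IL-1β are the founding ligands of the family. Both bind the receptor chain encoded by *Il1r1*, which then recruits an accessory chain and signals through MyD88 and IRAK kinases to NF-κB. IL-1β and IL-18 are made as inactive precursors that inflammasomes and caspase-1 cleave, IL-1α is active as a precursor, and IL-33 is a nuclear protein released from damaged stromal and epithelial cells. The pathway is held back by IL-1Ra, the product of *Il1rn*, which occupies the receptor without signaling, and by *Il1r2*, a receptor without a signaling domain that captures IL-1. IL-18 acts through *Il18r1* on T and NK cells, and IL-33 acts through ST2, the product of *Il1rl1*, on regulatory T cells, mast cells and group 2 innate lymphoid cells (ILC2). In tumors, myeloid cells are the usual source of IL-1 and fibroblasts a common responder.

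The genes lie in a few clusters. On mm10 chromosome 1, *Il1r2*, *Il1r1*, *Il1rl1* and *Il18r1* follow each other on the forward strand within 427 kb (40074079 to 40500854). *Il1a* and *Il1b* lie side by side on the reverse strand of chromosome 2 within 71.5 kb (129299610 to 129371139), *Il1rn* lies on the forward strand of the same chromosome (24336853 to 24351494), *Il18* on chromosome 9 (50554827 to 50581840, forward) and *Il33* on chromosome 19 (29925114 to 29960718, forward). The 250 bases before the RefSeq start sites were searched on both strands for letters bound by 4 factors of inflammatory and myeloid genes, namely NF-κB (GGG and CC with any 5 bases between them), AP-1 (TGANTCA), C/EBP (TTNNGNAA) and PU.1 (GAGGAA), where N is any base. All 9 members matched the RefSeq table, with 16 start sites. Of 32841 windows of that length, 45.8% held the NF-κB letters, 6.75% the AP-1 letters, 36.9% the C/EBP letters and 23.3% the PU.1 letters, so a match alone says little. The transcripts of *Il1a*, *Il1b*, *Il1rn* and *Il1r2* had ratios above 0 in each of the 6 myeloid classes. Of these, the windows of the IL-1 ligands and their antagonist, *Il1a*, *Il1b* and *Il1rn*, are shown. They lie at chr2:129309973-129310222 (*Il1a*, reverse strand), chr2:129371140-129371389 (*Il1b*, reverse strand) and chr2:24336610-24336852 (*Il1rn*, forward strand, ended before the first annotated exon base) of GRCm38.p6, read 5′ to 3′ along the gene, with every motif match in capitals.
Il1a: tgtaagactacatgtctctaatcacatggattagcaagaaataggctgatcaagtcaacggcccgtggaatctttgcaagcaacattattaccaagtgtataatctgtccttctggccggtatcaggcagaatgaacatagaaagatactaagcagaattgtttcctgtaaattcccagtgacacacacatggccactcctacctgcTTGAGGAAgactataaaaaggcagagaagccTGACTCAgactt
Il1b: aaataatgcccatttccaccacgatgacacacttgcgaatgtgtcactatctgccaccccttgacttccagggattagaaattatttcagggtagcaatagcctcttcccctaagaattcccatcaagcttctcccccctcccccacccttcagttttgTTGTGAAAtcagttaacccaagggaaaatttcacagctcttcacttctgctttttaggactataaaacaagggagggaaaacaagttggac
Il1rn: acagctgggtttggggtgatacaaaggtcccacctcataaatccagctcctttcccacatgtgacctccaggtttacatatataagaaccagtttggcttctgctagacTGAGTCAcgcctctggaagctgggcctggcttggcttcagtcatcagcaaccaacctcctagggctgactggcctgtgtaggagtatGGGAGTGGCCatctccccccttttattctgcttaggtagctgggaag
In the *Il1a* window the AP-1 letters began 12 bases before the start, and a C/EBP match at 43 overlapped a PU.1 match at 41. *Il1b* held a single C/EBP match, 91 bases before the start, and none of the letters of the other 3 motifs. The window shown for *Il1rn*, at the first of its 3 start sites, held AP-1 letters at 141 and NF-κB letters at 54 bases before the start. Both other *Il1rn* windows held C/EBP letters, and that of start site 3 also NF-κB letters at 51. The windows of *Il1r2* and *Il18* held none of the 4 motifs. A match is a description of the letters and was not tested as a binding site, and no match says only that these letters are not in this window.

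Each group is a single library, so the spread between replicates is unknown, no test of treatment was possible and all values are descriptions of the pair of libraries. The PBS matrix has 19397 barcodes and 121713441 UMIs (unique molecular identifiers, which count transcripts), and the anti–PD-1 matrix 19451 and 100807037. Cells kept (500 to 5000 genes detected, no more than 10% of UMIs mitochondrial) numbered 15531 (80.1%) and 16360 (84.1%), with a median of 3159 and 2990 UMIs. *Xist* was detected in 45.7% of PBS but 0.0672% of anti–PD-1 cells, and a Y-linked gene without *Xist* in 9.54% and 48.1%, so the PBS library is a mixture of female and male cells and the anti–PD-1 library is male. Outside cells with a Y-linked UMI, sex and treatment cannot be told apart. The libraries shared 219 barcodes. Cells were assigned to 21 classes by marker genes, and class names below mean "X-like". The gated classes each had their own markers among their leading genes and none of another class. Because cells were placed by these same markers, this does not test the class names. The leading genes of monocyte-like cells also included *Mpo*, *Elane* and *Prtn3*, protease and peroxidase genes of myeloid precursors. Separation was weaker in some classes. Cells near the gate were 39.5% and 50% of cDC1-like and 25.7% and 34.965% of Kupffer-like cells in the PBS and anti–PD-1 libraries. They were 4.03% and 6.32% of neutrophil-like cells. In unintegrated clusters, the largest cluster of cDC1-like cells was cluster 2 (50.6% and 47%), which was classed as cDC2-like. Neutrophil-like cells were 1264 (8.14%) and 3150 (19.3%), Kupffer-like cells 833 and 1573, other macrophage-like cells 2944 (19.0%) and 1522 (9.30%), and tumor or biliary epithelial-like cells 1647 and 1102. In unintegrated clusters, most PBS neutrophil-like cells lay in cluster 8 (84.97%) and most anti–PD-1 ones in cluster 18 (72.3%). The leading genes of cluster 8 included granule genes of immature neutrophils (*Camp*, *Ngp*, *Ltf*) but also *Cxcr2* and *Retnlg*. Those of cluster 18 included *Retnlg* and *Cxcr2* too, with *G0s2*, *Clec4d* and *Il1r2* itself. Macrophage-like cells lay mostly in cluster 1 (52.0%) in the PBS and in cluster 21 (61.8%) in the anti–PD-1 library. Tumor-like cells lay mostly in cluster 9 (60.5%), classed as tumor or biliary epithelial-like, in the PBS library. In the anti–PD-1 library they lay mostly in cluster 12 (68.5%), classed as erythroid-like. The largest cluster of monocyte-like cells was cluster 17 (70.0%), classed as monocyte-like, in the PBS library. In the anti–PD-1 library it was cluster 21 (44.6%), classed as macrophage-like. The cells compared within these classes thus had different largest clusters in the 2 libraries. Cell state cannot be told apart here from other differences between the libraries. In tumor-like cells *Yap1* was at 9.41 (7.36–11.8) CPM against 10.6 (7.50–14.7) CPM and *Wwtr1* at 11.6 (9.34–14.3) CPM against 6.91 (4.43–10.3) CPM, which does not measure the knockdown.

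Across the 12 classes with at least 100 cells in each library, *Il1b*, *Il1r2*, *Il1a* and *Il1rn* were higher in the anti–PD-1 library in most classes, whereas *Il18* and the receptor chains were within 2-fold of their PBS level in all but 1 combination of gene and class, and *Il33* in all but 1 class. UMIs were summed per class and expressed per 1000000 UMIs of that class (CPM). A ratio is the log2 of the anti–PD-1 level divided by the PBS level, with 5 CPM added to each, so that ratios of weakly detected genes are drawn toward 0. Ranges in parentheses are 95% intervals for counting error only. Of 108 combinations of member and class, 92 had at least 20 UMIs in the 2 libraries together. Of these, 41 were over 2-fold higher with anti–PD-1, and over all genes in the same classes this share was 2.48%. The limit of 20 UMIs, also set for all genes, holds for the sum. A value can therefore pass it through the anti–PD-1 library alone, as *Il1a* did in neutrophil-like cells (7 and 283 UMIs). The counts are descriptions and not a test. By class, the share of all genes past 2-fold higher was 2.31% in neutrophil-like, 1.51% in Kupffer-like, 2.63% in macrophage-like, 3.17% in monocyte-like, 4.45% in cDC1-like, 2.48% in cDC2-like, 1.49% in B-like, 1.13% in T-like, 2.24% in NK-like, 3.24% in endothelial-like, 3.26% in CAF-like and 2.55% in tumor-like cells. Only 1 of the 92 was past 2-fold lower, against 1.83% of all genes. *Il1b* was past 2-fold higher in 12 of 12 classes, *Il1r2* in 11 of 12, *Il1a* in 10 of 12, *Il1rn* in 7 of 12 and *Il33* in 1 of 8, while *Il18* (12 classes), *Il18r1* (10), *Il1r1* (10) and *Il1rl1* (4) were past it in none. With each cell thinned to 1000 UMIs, *Il1r2* was found in 0.248% and 3.93% of Kupffer-like and 0.527% and 3.97% of macrophage-like cells. These shares were no higher than the 0.695% and 4.50% of B-like cells. Free RNA can give such low shares, and its part in these counts was not tested. The median log2 ratio over classes was 2.45 for *Il1b*, 2.47 for *Il1r2*, 1.59 for *Il1a*, 1.11 for *Il1rn*, 0.33 for *Il33* (8 classes), 0.20 for *Il18*, −0.09 for *Il1rl1* (4 classes), −0.37 for *Il18r1* and −0.40 for *Il1r1*. The median of all genes was itself below 0, from −0.01 in cells like cancer-associated fibroblasts (CAFs) to −0.23 in neutrophil-like cells. Scaling each class to its median gene raised the ratios by 0.01 to 0.32 and changed the sign of 2 of 92, *Il1r2* in T-like cells (−0.08 to 0.12) and *Il18* in NK-like cells (−0.04 to 0.04), both of which had intervals that span 0.

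**Figure D1:**
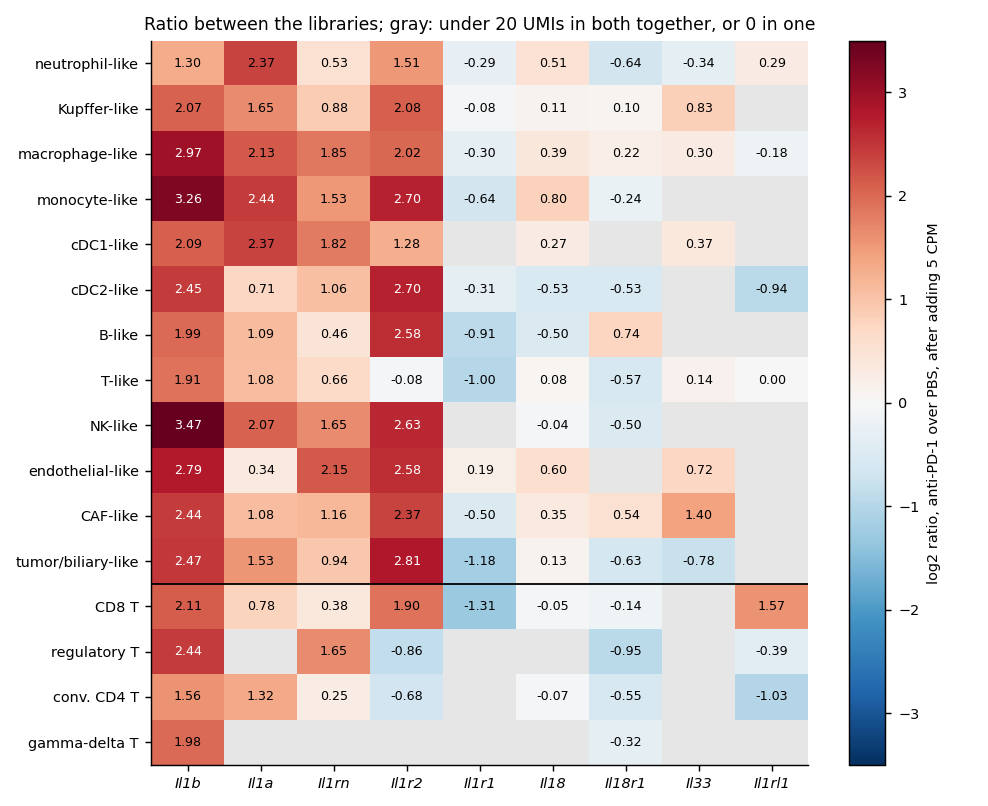
Log2 ratio of the anti–PD-1 library over the PBS library (color and number, after adding 5 CPM) for the 9 members (columns) in 12 marker-gated classes and, under the line, 4 groups of T cells (rows). Gray fields had under 20 UMIs in both libraries together, or 0 in one of them, as *Il1r2* in γδ T cells. The columns of *Il1b*, *Il1a* and *Il1rn* are above 0 in every measured class, that of *Il1r2* falls below 0 in T-like cells as a whole, regulatory T and conventional CD4 T cells, and the columns of *Il1r1* and *Il18r1* are mostly below 0.

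*Il1b* (ENSMUSG00000027398), the gene of IL-1β, had 10663 and 72359 UMIs in the PBS and anti–PD-1 libraries, or 134.8 and 931.6 CPM over all kept cells. Neutrophil-like cells stood at the top of the order in both libraries and carried 41.5% and 50.5% of the UMIs, or 73.1% and 75.3% when each cell was thinned to 1000 UMIs. In them 4421 and 36527 UMIs were counted, or 1911 (1855–1969) CPM against 4722 (4674–4771) CPM, a log2 ratio of 1.30 (1.26 to 1.35). The ratio was larger in the mononuclear phagocytes. Macrophage-like cells had 2136 and 8232 UMIs, at 86.1 and 708 CPM, with a ratio of 2.97 (2.90 to 3.03). Monocyte-like cells had 565 and 4842 UMIs, at 112 and 1120.4 CPM, with a ratio of 3.26 (3.14 to 3.39). The monocyte ratio was smaller when clusters replaced the gate, as given at the end. Macrophage-like and monocyte-like cells both started from low PBS levels, and in the anti–PD-1 library the monocyte-like level was above the Kupffer-like one. Kupffer-like cells, the resident macrophages of the liver sinusoid, had 1585 and 12917 UMIs, at 214 and 914 CPM, and a ratio of 2.07 (1.99 to 2.14). Cells like type 2 conventional dendritic cells (cDC2) had 856 and 3125 UMIs, at 216 and 1208 CPM, with a ratio of 2.45 (2.35 to 2.56), and cDC1-like cells had 174 and 1298 UMIs and a ratio of 2.09 (1.87 to 2.32). Among the phagocytes and dendritic cells, neutrophil-like cells therefore had the smallest ratio and the highest level, although the ratio of monocyte-like cells was below theirs in cells without a neutrophil marker UMI (0.91). In order of level, neutrophil-like cells were followed in the PBS library by cDC2-like and Kupffer-like cells, whose intervals overlapped, and in the anti–PD-1 library by cDC2-like and monocyte-like cells, whose intervals did not.

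Neutrophil-like cells ranked first by the share of cells with *Il1b* as well. Each cell was thinned to 1000 UMIs to compare shares at 1 depth, which left out 125 PBS and 168 anti–PD-1 neutrophil-like cells. An *Il1b* UMI was found in 726 of 1139 PBS cells (63.7%, 60.9–66.5) against 2605 of 2982 anti–PD-1 cells (87.4%, 86.1 to 88.5) among neutrophil-like cells. Without thinning these shares were 71.4% and 92.7%, at a median of 1577 and 2083 UMIs per cell. The share was 15.6% and 42.7% in Kupffer-like, 7.28% and 33.9% in macrophage-like, 7.604% and 44.0% in monocyte-like and 12.03% and 52.3% in cDC2-like cells. In T-like cells, which are not a usual source of IL-1β, it was 1.27% and 6.86%, and in B-like cells 1.99% and 8.99%, at median depths of 2687 and 3485 UMIs (T) and 1807.5 and 2551 UMIs (B). Free RNA can give such low shares in cells that do not transcribe a gene, and these shares too were higher in the anti–PD-1 library. The median neutrophil-like cell held 11.4 and 38.7 *Il1b* UMIs per 10000 UMIs, and cells with none were 28.6% and 7.27%. The 127 PBS cells and 315 anti–PD-1 cells with the most *Il1b* UMIs held 42.0% and 33.3% of the neutrophil-like total, without correction for depth or level.

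**Figure D2:**
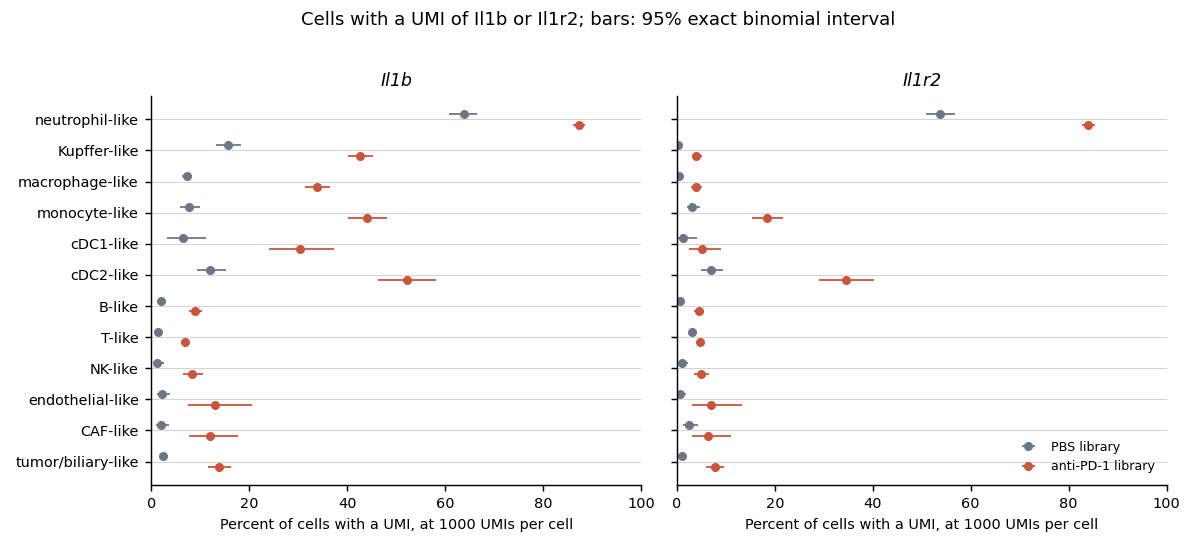
Percent of cells with a UMI of *Il1b* (left) or *Il1r2* (right) after thinning each cell to 1000 UMIs, by class. Gray points are the PBS library, red points the anti–PD-1 library and bars exact binomial 95% intervals. Neutrophil-like cells rank first in both panels at 63.7% and 87.4% (*Il1b*) and 53.8% and 84.0% (*Il1r2*), followed in the anti–PD-1 library by cDC2-like cells at 52.3% and 34.5%.

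Lymphoid and stromal classes also held more *Il1b* UMIs in the anti–PD-1 library, and neutrophil marker UMIs were also more frequent in them. *Il1b* was at 42.2 and 183 CPM in B-like, 22.9 and 99.9 CPM in T-like, 13.8 and 204 CPM in NK-like, 27.9 and 174 CPM in CAF-like and 29.7 and 187 CPM in tumor-like cells. The summed level of the 9 neutrophil markers of the gate, among them *S100a8* and *S100a9*, was 422 and 1252 CPM in B-like, 332 and 862 CPM in T-like, 251 and 1565 CPM in NK-like, 754 and 1384 CPM in CAF-like and 346 and 1367 CPM in tumor-like cells. In neutrophil-like cells it was 86182 and 88773 CPM. In these 5 classes 0 or 1 of the 9 markers stood at 0 in either library. Per 100 UMIs of these markers there were 2.22 and 5.32 *Il1b* UMIs in neutrophil-like cells, 10 and 14.6 in B-like, 6.90 and 11.6 in T-like and 8.57 and 13.7 in tumor-like cells, but 66.7 and 119 in Kupffer-like, 33.1 and 98.3 in macrophage-like and 10.8 and 72.4 in monocyte-like cells.

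In cells with no UMI of any of the 9 markers, a comparison added after seeing the data, *Il1b* in macrophage-like cells had 612 UMIs in 1018 PBS cells against 245 in 126 anti–PD-1 cells, at 91.3 and 784 CPM, and the ratio was 3.03 (2.82 to 3.25), as large as in all cells of the class. In Kupffer-like cells it was 1.87 (1.64 to 2.10) and in cDC2-like cells 2.44 (2.18 to 2.69). In B-like and T-like cells without these markers *Il1b* was at 12.2 and 151 CPM and at 9.42 and 52.3 CPM, with ratios of 3.18 (2.65 to 3.71) and 1.99 (1.63 to 2.34). Monocyte-like cells are the exception, with 155 UMIs in 205 PBS cells against 31 in 28 anti–PD-1 cells, at 127 and 243 CPM, and a ratio of 0.91 (0.32 to 1.45). Of the 25 values of members past 2-fold higher in all cells of a class or T cell group and measured in such cells, 22 were past it there too, the other 3 being *Il1b* and *Il1rn* in monocyte-like and *Il33* in CAF-like cells. Of 65 values measured in both ways 12 changed sign, each with an interval that spans 0 in cells without these markers. Such cells were few and often shallow in the anti–PD-1 library. They were 8.28% of macrophage-like cells with a median of 1168 UMIs, against 34.6% with a median of 6042 UMIs in the PBS library, and 4.47% of monocyte-like cells against 29.1%.

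**Figure D3:**
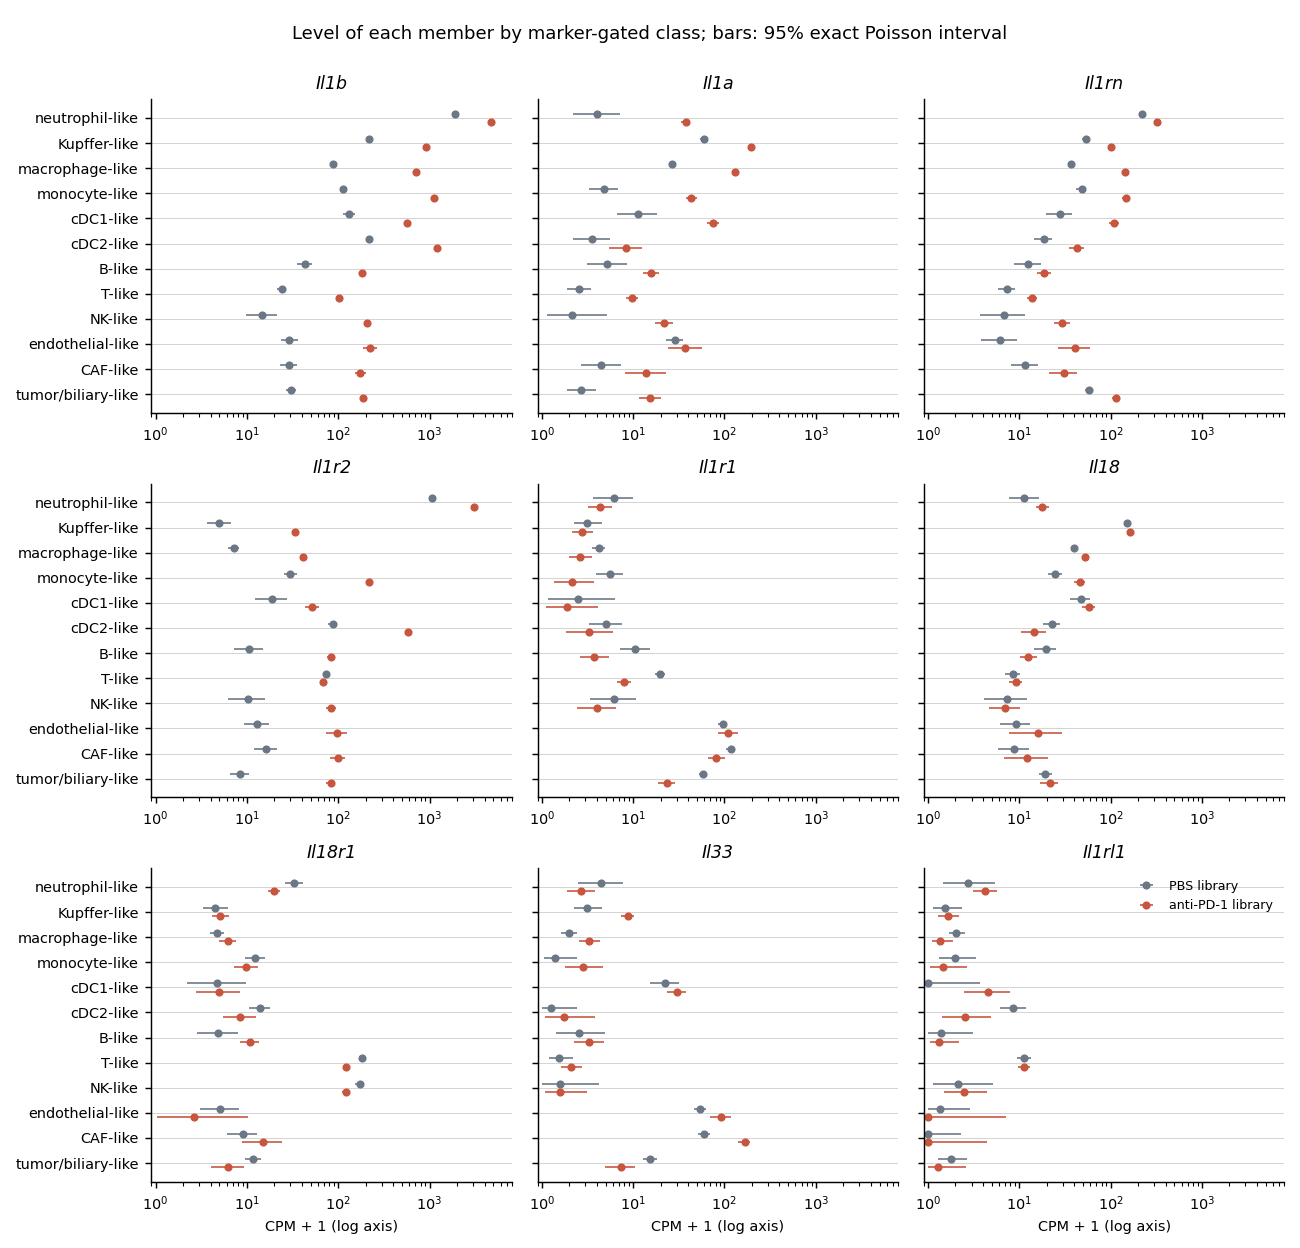
Level of each member (CPM plus 1, log axis) by marker-gated class. Gray points are the PBS library, red points the anti–PD-1 library and bars exact Poisson 95% intervals. *Il1b* and *Il1r2* peak in neutrophil-like cells, *Il1a* and *Il18* in Kupffer-like cells, *Il18r1* in T-like and NK-like cells, and *Il1r1* and *Il33* in endothelial-like and CAF-like cells.

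*Il1a* (ENSMUSG00000027399), the gene of IL-1α, was a transcript of macrophages rather than neutrophils. It had 1268 and 5330 UMIs, or 16.0 and 68.6 CPM over all kept cells. Kupffer-like cells had the highest level in both libraries, with 431 and 2732 UMIs, at 58.3 (52.9–64.1) CPM against 193 (186–201) CPM, a ratio of 1.65 (1.51 to 1.79). In macrophage-like cells 636 and 1505 UMIs were counted, at 25.7 and 129.5 CPM, and the ratio was 2.13 (2.02 to 2.25). These classes together held most *Il1a* UMIs, at 34.0% and 51.3% for Kupffer-like and 50.2% and 28.2% for macrophage-like cells. Their order by share differed between the libraries, as their cell numbers did. cDC1-like cells had 14 and 171 UMIs, at 10.4 and 74.6 CPM, and monocyte-like cells 19 and 184 UMIs, at 3.77 and 42.6 CPM, with ratios of 2.37 and 2.44. In neutrophil-like cells there were 7 PBS UMIs and 283 anti–PD-1 UMIs, at 3.03 (1.22–6.24) CPM against 36.6 (32.4–41.1) CPM, a ratio of 2.37 (1.86 to 2.77). A PBS sum of 7 UMIs leaves this ratio imprecise, and it was 3.22 with a pseudocount of 1 CPM. Endothelial-like cells ranked above all classes but Kupffer-like cells in the PBS library, with 82 and 22 UMIs at 27.8 and 36.4 CPM, although their PBS interval includes the macrophage-like level, and their ratio of 0.34 (−0.30 to 0.94) spanned 0. Cells with *Il1a* were few at 1000 UMIs, 5.20% and 15.0% of Kupffer-like and 2.57% and 8.33% of macrophage-like cells, against 0.271% and 0.672% of T-like cells.

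*Il1rn* (ENSMUSG00000026981), which encodes the receptor antagonist, was also higher in the anti–PD-1 library, by less than *Il1b* in each of the 12 classes. Over all kept cells it went from 2837 to 7573 UMIs, or from 35.9 to 97.5 CPM. Neutrophil-like cells had 510 and 2487 UMIs, at 220.5 (202–240.5) CPM against 321 (309–334) CPM, a ratio of 0.53 (0.40 to 0.67), which is under 2-fold. Macrophage-like cells had 900 and 1668 UMIs, at 36.3 and 144 CPM, a ratio of 1.85 (1.74 to 1.95), and monocyte-like cells 237 and 626 UMIs, at 47.0 and 145 CPM, a ratio of 1.53 (1.33 to 1.73). Their anti–PD-1 levels were almost equal, with overlapping intervals. In monocyte-like cells without a neutrophil marker UMI the ratio was −0.34 (−1.70 to 0.84), on 62 UMIs in 205 PBS cells against 5 in 28 anti–PD-1 cells. Kupffer-like cells had 386 and 1419 UMIs and a ratio of 0.88 (0.73 to 1.03). Tumor-like cells were the main source outside the myeloid classes, with 433 and 394 UMIs, at 56.6 (51.4–62.2) CPM against 113 (102–125) CPM, a ratio of 0.94 (0.76 to 1.13). This ratio was 0.22 (−0.25 to 0.69) at 1000 UMIs per cell and 1.79 (1.24 to 2.37) in cells with a Y-linked UMI and no *Xist*. Hepatocyte-like cells (118 and 43 cells) had 52 and 29 UMIs, at 78.7 and 109 CPM, and a ratio of 0.45 (−0.22 to 1.08) whose interval spans 0. B-like and T-like cells stood lower, at 11.5 and 17.8 CPM and at 6.25 and 12.8 CPM. The number of *Il1b* UMIs per *Il1rn* UMI was 8.67 and 14.7 in neutrophil-like, 4.11 and 9.10 in Kupffer-like, 2.37 and 4.94 in macrophage-like, 2.38 and 7.73 in monocyte-like and 12.4 and 28.9 in cDC2-like cells, higher in the anti–PD-1 library in each. In tumor-like cells it was 0.524 and 1.65.

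*Il1r2* (ENSMUSG00000026073), the decoy receptor, followed *Il1b* in neutrophils and dendritic cells but not in T cells. Its UMIs went from 4167 to 29622, or from 52.7 to 381 CPM over all kept cells. Neutrophil-like cells had 2458 and 23455 UMIs, at 1063 (1021–1106) CPM against 3032 (2993–3071) CPM, a ratio of 1.51 (1.45 to 1.57), and held 59.0% and 79.2% of all *Il1r2* UMIs. An *Il1r2* UMI was found in 613 of 1139 PBS cells (53.8%, 50.9–56.7) against 2506 of 2982 anti–PD-1 cells (84.0%, 82.7 to 85.3) at 1000 UMIs. cDC2-like cells came next in level, with 339 and 1511 UMIs, at 85.6 (76.8–95.2) CPM against 584 (555–614) CPM, a ratio of 2.70 (2.54 to 2.87). In cDC2-like cells without a neutrophil marker UMI the ratio was 2.48 (2.07 to 2.87), on 197 UMIs in 282 cells and 69 UMIs in 21 cells. Monocyte-like cells had 146 and 932 UMIs, at 29.0 and 216 CPM, and a ratio of 2.70 (2.48 to 2.92), whereas Kupffer-like and macrophage-like cells stayed lower, at 3.92 and 32.7 CPM and at 6.17 and 40.4 CPM. In B-like, NK-like, CAF-like and tumor-like cells *Il1r2* was at 9.599 and 82.1 CPM, 9.18 and 82.7 CPM, 15.0 and 98.2 CPM and 7.32 and 81.4 CPM, beside the neutrophil marker levels given above. The *Il1b* UMIs per *Il1r2* UMI in the PBS and anti–PD-1 libraries were 1.80 and 1.56 in neutrophil-like cells. They were 4.40 and 2.22 in B-like, 1.50 and 2.46 in NK-like, 1.86 and 1.77 in CAF-like and 4.05 and 2.29 in tumor-like cells, while Kupffer-like and macrophage-like cells had 54.7 and 28.0 and 13.96 and 17.6.

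T-like cells held the second largest part of the *Il1r2* UMIs in the PBS library, 19.0% and 3.55%, with 792 and 1051 UMIs, at 71.8 and 67.8 CPM. Within them, Foxp3-gated regulatory T cells (267 and 288 cells) had 325 and 230 UMIs, at 273 (244–304) CPM against 147 (129–168) CPM, a ratio of −0.86 (−1.11 to −0.62). Conventional CD4 T cells (713 and 807 cells) had 329 and 252 UMIs, at 125 (112–139) CPM against 76.0 (66.9–85.98) CPM, a ratio of −0.68 (−0.91 to −0.45). In CD8 T cells (944 and 1344 cells) the direction was opposite, with 26 and 294 UMIs, at 7.95 and 43.5 CPM, a ratio of 1.90 (1.51 to 2.28), past 2-fold as were 1.52% of all genes in these cells. γδ T cells (97 and 117 cells) had 0 UMIs in the PBS library, where the interval reaches up to 12.9 CPM, and 58 in the anti–PD-1 library (120.5 CPM, 91.5 to 155.8). The share of cells with an *Il1r2* UMI at 1000 UMIs was 12.5% and 10.1% in regulatory and 5.66% and 5.60% in conventional CD4 T cells, with overlapping intervals between the libraries. In CD8 T cells it was 0.642% and 3.17%, no higher than the 0.695% and 4.50% of B-like cells, and was not read as expression by CD8 T cells. In γδ T cells it was 0 of 96 cells (interval up to 3.77%) and 4 of 117 (3.42%), likewise no higher than in B-like cells. Their anti–PD-1 level of 120.5 CPM (91.5 to 155.8) was however above the B-like level, so these few cells were not read either way. The anti–PD-1 share of conventional CD4 T cells (4.11 to 7.42%) overlapped that of B-like cells (3.60 to 5.54%), and their level there was below the B-like one. The anti–PD-1 value of conventional CD4 T cells was therefore not told apart from free RNA. In CD8 T cells without a neutrophil marker UMI the ratio was 1.94 (1.13 to 2.63), on 4 and 15 UMIs, short of the 20 set for reading a ratio. The lower *Il1r2* level of regulatory T cells was not seen in cells without a neutrophil marker UMI, where 174 UMIs in 184 PBS cells against 33 in 41 anti–PD-1 cells gave 219.8 and 256 CPM and a ratio of 0.21 (−0.35 to 0.74). In conventional CD4 T cells without such a UMI the ratio was −1.60 (−2.30 to −0.95).

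**Figure D4:**
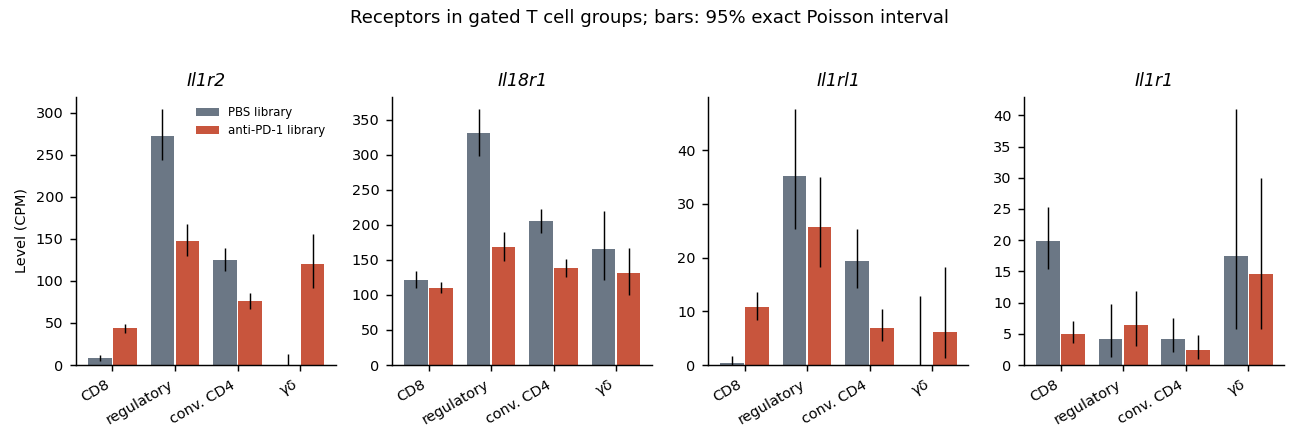
Level of *Il1r2*, *Il18r1*, *Il1rl1* and *Il1r1* (CPM) in gated CD8, regulatory, conventional CD4 and γδ T cells of the PBS library (gray) and the anti–PD-1 library (red), with exact Poisson 95% intervals. *Il1r2* and *Il18r1* are highest in regulatory T cells in both libraries and lower there in the anti–PD-1 library (273 to 147 CPM and 330 to 169 CPM), which was not detectable in cells without a neutrophil marker UMI (ratios of 0.21 and −0.19), while *Il1r2* is higher in CD8 and γδ T cells, where the share of cells with a UMI at equal depth was no higher than in B-like cells.

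*Il1r1* (ENSMUSG00000026072), the signaling receptor of IL-1, was mainly a transcript of stromal and epithelial cells. It had 1553 and 500 UMIs, or 19.6 and 6.44 CPM over all kept cells, and these classes also had fewer cells in the anti–PD-1 library. CAF-like cells (555 and 227 cells) had 333 and 87 UMIs, at 116 (104–129) CPM against 80.6 (64.6–99.4) CPM, a ratio of −0.50 (−0.84 to −0.18). Endothelial-like cells (590 and 127 cells) had 280 and 66 UMIs, at 94.8 (84.0–107) CPM against 109 (84.5–139) CPM, and no difference was detectable, with a ratio of 0.19 (−0.19 to 0.57). The 2 classes changed places in the order, within overlapping intervals in the anti–PD-1 library. Tumor-like cells had 438 and 78 UMIs, at 57.2 (52.0–62.9) CPM against 22.4 (17.7–28.0) CPM, a ratio of −1.18 (−1.48 to −0.89), the only value of a member past 2-fold lower in the 12 classes, where 2.19% of all genes were. It was −0.95 without the upper limit on detected genes and −0.86 (8 anti–PD-1 UMIs) in cells without a neutrophil marker UMI. Tumor-like cells of the 2 libraries lay mostly in different clusters, and the part of this in the ratio was not tested. The lower level in CAF-like cells was not seen at 1000 UMIs per cell, with a ratio of −0.03 (−0.89 to 0.77) on 42 and 16 UMIs. T-like cells had 208 and 108 UMIs, at 18.9 and 6.97 CPM, a ratio of −0.995, just short of 2-fold. Of these UMIs, CD8 T cells held 65 and 34, at 19.9 and 5.03 CPM, with a ratio of −1.31 (−1.69 to −0.92), where 1.23% of all genes were past 2-fold lower, and of −0.94 (−1.76 to −0.07) without a neutrophil marker UMI, on 45 and 6 UMIs. Myeloid classes stood under 6 CPM in both libraries.

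*Il18* (ENSMUSG00000039217), the gene of IL-18, was not among the genes past 2-fold higher. Kupffer-like cells had the highest level, with 1104 and 2281 UMIs, at 149 (141–158) CPM against 161 (155–168) CPM, a ratio of 0.11 (0.01 to 0.21). An *Il18* UMI was found in 12.6% and 14.4% of them at 1000 UMIs, with overlapping intervals, against 0.723% and 0.952% of T-like cells. Macrophage-like cells had 952 and 604 UMIs, at 38.4 and 52.0 CPM, a ratio of 0.39 (0.26 to 0.53), and monocyte-like cells 120 and 195 UMIs, at 23.8 and 45.1 CPM, a ratio of 0.80 (0.51 to 1.08). Kupffer-like cells held 39.5% and 60.2% of the *Il18* UMIs, at 833 and 1573 cells. In cDC2-like cells *Il18* was lower, with 86 and 35 UMIs and a ratio of −0.53 (−0.97 to −0.09), and 0.73 (−0.64 to 1.91) without a neutrophil marker UMI, on 46 UMIs in 282 PBS cells against 5 in 21 anti–PD-1 cells. The 53 and 32 mesothelial-like cells were at 116 and 74.9 CPM, with intervals that overlap.

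*Il18r1* (ENSMUSG00000026070), the ligand-binding chain of the IL-18 receptor, was carried by T-like and NK-like cells, and both had less of it in the anti–PD-1 library. T-like cells had 2013 and 1886 UMIs, at 182 (175–191) CPM against 122 (116–127) CPM, a ratio of −0.57 (−0.65 to −0.48), and NK-like cells 300 and 403 UMIs, at 172 (153–193) CPM against 120.3 (109–133) CPM, a ratio of −0.50 (−0.71 to −0.29). Neither was past 2-fold, and the NK-like interval spanned 0 at 1000 UMIs per cell (−0.26, −0.80 to 0.28) and in cells without a neutrophil marker UMI (−0.09, −0.51 to 0.32). In T-like cells without such a UMI the ratio was −0.51 (−0.71 to −0.32), on 1338 UMIs in 2249 PBS cells against 238 in 569 anti–PD-1 cells. Among T cells, regulatory T cells had the highest level and the lowest ratio, with 394 and 263 UMIs, at 330.4 and 169 CPM, a ratio of −0.95 (−1.17 to −0.73). Conventional CD4 T cells followed with 541 and 459 UMIs, at 205 and 138 CPM, a ratio of −0.55 (−0.73 to −0.37). Neither difference was detectable in cells without a neutrophil marker UMI, where regulatory T cells had 273 UMIs in 184 PBS cells against 39 in 41 anti–PD-1 cells, at 345 and 302 CPM, and a ratio of −0.19 (−0.70 to 0.29), and conventional CD4 T cells a ratio of −0.36 (−0.74 to 0.01), and both intervals span 0. In CD8 T cells no difference was detectable, with 397 and 743 UMIs, at 121 and 109.9 CPM, and a ratio of −0.14 (−0.31 to 0.03). The share of cells with a UMI at 1000 UMIs was 14.4% and 8.59% of T-like and 15.4% and 13.4% of NK-like cells, against 0.0993% and 0.596% of B-like cells. Neutrophil-like cells had 74 and 145 UMIs, at 32.0 and 18.7 CPM, a ratio of −0.64 (−0.98 to −0.29).

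*Il33* (ENSMUSG00000024810), an alarmin of stromal cells, was highest in CAF-like, endothelial-like and mesothelial-like cells. CAF-like cells had 170 and 178 UMIs, at 59.3 (50.8–69.0) CPM against 165 (142–191) CPM, a ratio of 1.40 (1.11 to 1.69), where 3.26% of all genes were past 2-fold higher. Endothelial-like cells had 157 and 55 UMIs, at 53.2 (45.2–62.2) CPM against 91.0 (68.5–118) CPM, a ratio of 0.72 (0.29 to 1.14), and mesothelial-like cells 23 and 32 UMIs, a ratio of 1.45 (0.70 to 2.21). The total over all cells was 588 and 568 UMIs. In the split of that total, class sizes contributed −238 UMIs per 10000 cells and UMIs per cell 206.9. An *Il33* UMI was found in 4.14% and 11.4% of CAF-like cells at 1000 UMIs (2.51 to 6.39 and 7.12 to 17.1), against 0.0301% and 0.0560% of T-like cells. Tumor-like cells moved the other way, with 111 and 22 UMIs, at 14.5 and 6.33 CPM, a ratio of −0.78 (−1.18 to −0.37). cDC1-like cells had 29 and 67 UMIs, at 21.5 and 29.2 CPM, and a ratio of 0.37 (−0.17 to 0.91) whose interval spans 0. In CAF-like cells without a neutrophil marker UMI the *Il33* ratio was 0.16 (−1.86 to 1.70), on 3 UMIs in 26 anti–PD-1 cells. In those with a Y-linked UMI and no *Xist* it was 2.43. Over all CAF-like cells, with or without a neutrophil marker UMI, the summed CAF markers were at 31250.2 and 30661 CPM.

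*Il1rl1* (ENSMUSG00000026069), which encodes the IL-33 receptor ST2, was the scarcest member, with 301 and 291 UMIs in all. T-like cells had 113 and 159 UMIs, at 10.2 and 10.3 CPM, a ratio of 0.00 (−0.24 to 0.24). Under this equal total, regulatory T cells had 42 and 40 UMIs, at 35.2 and 25.7 CPM, a ratio of −0.39 (−0.94 to 0.16), conventional CD4 T cells 51 and 23 UMIs, a ratio of −1.03 (−1.50 to −0.53), and CD8 T cells 1 UMI in 944 cells and 73 in 1344 cells, a ratio of 1.57 (1.17 to 1.82). In regulatory T cells without a neutrophil marker UMI the ratio was 0.07 (−1.32 to 1.30), and in those with a Y-linked UMI and no *Xist* there were 0 and 28 UMIs in 24 and 175 cells, so no direction is read there. The CD8 T cells of the anti–PD-1 library held 25.1% of all *Il1rl1* UMIs there, and those of the PBS library 0.332%. In conventional CD4 T cells 1.28% of all genes were past 2-fold lower. Basophil-like or mast-like cells, 25 and 30 in number, had 84 and 21 UMIs, at 1035 (826–1282) CPM against 149 (92.3–228) CPM, and ILC2-like cells 9 UMIs in 1 cell and 36 UMIs in 15 cells. These cells are too few to compare. CAF-like cells had 0 UMIs in both libraries.

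The totals over all cells combine the UMIs per cell with the number of cells of each class, which an arithmetic split separates. UMIs per cell were not corrected for depth, which had a median of 1577 and 2083 UMIs in neutrophil-like cells. *Il1b* went from 6866 to 44229 UMIs per 10000 kept cells, and 83.5% of the difference came from UMIs per cell within classes and the rest from class sizes. Neutrophil-like cells contributed 19481 of the difference of 37364, with 3.498 and 11.6 UMIs per cell. For *Il1r2* (2683 to 18106) the part from UMIs per cell was 70.7%, for *Il1rn* (1827 to 4629) 99.3% and for *Il1a* (816 to 3258) 105%, class sizes contributing −115 UMIs. *Il1r1* went from 999.9 to 306 UMIs per 10000 cells, of which 51.3% lay within classes. Captured cells stand for what was dissociated and filtered, so class sizes are shares of the libraries and not of the tissue.

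**Figure D5:**
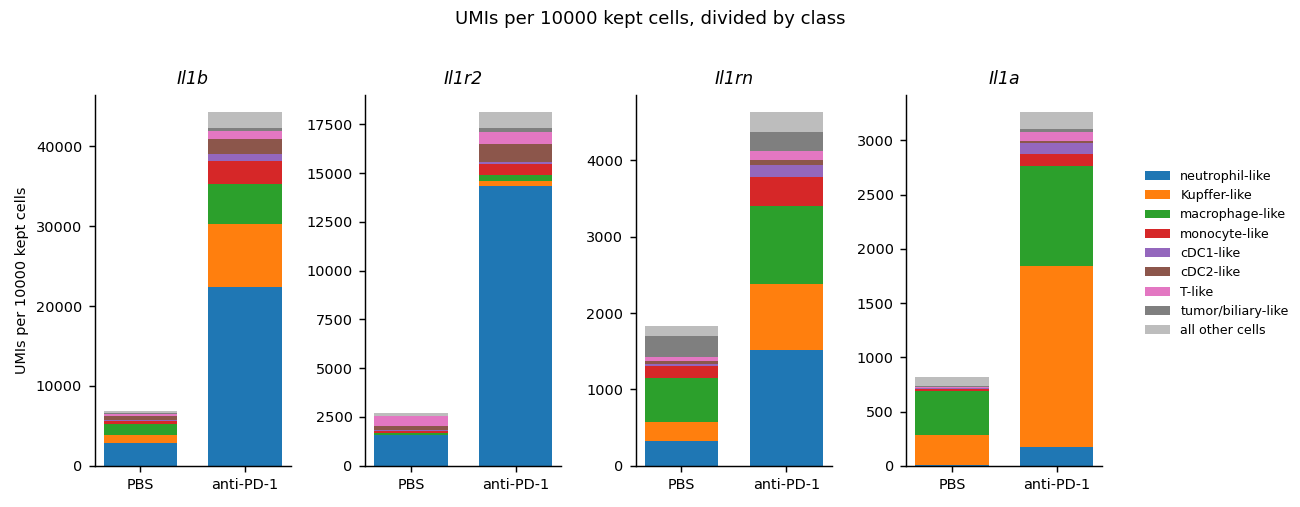
UMIs of *Il1b*, *Il1r2*, *Il1rn* and *Il1a* per 10000 kept cells (y axes differ) in the PBS and anti–PD-1 libraries, stacked by the class that held them. Neutrophil-like cells form the largest part of *Il1b* and *Il1r2*, Kupffer-like and macrophage-like cells that of *Il1a*, and the totals are 6.44-fold, 6.75-fold, 2.53-fold and 3.99-fold higher with anti–PD-1.

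Ligand and decoy were found in the same neutrophils. At 1000 UMIs per cell, *Il1b* and *Il1r2* were both detected in 391 of 1139 PBS neutrophil-like cells (34.3%) and in 2263 of 2982 anti–PD-1 cells (75.9%). In the PBS library *Il1r2* was found in 53.9% of cells with an *Il1b* UMI and in 53.8% of cells without, and with anti–PD-1 these shares were 86.9% and 64.5%. Co-detection in cDC2-like cells went from 4 of 507 (0.789%) to 62 of 287 (21.6%). *Il1a* and *Il1b* together were seen in 0.867% and 8.07% of Kupffer-like cells. These shares rise with the level of each gene, so they describe the cells and do not test a link.

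The other genes of the pathway were read from chosen lists. Of 22 genes of processing and release, *Nlrp3*, the sensor of the inflammasome that cleaves pro-IL-1β, was past 2-fold higher in 11 of the 12 classes, all but T-like cells. It had 458 and 3269 UMIs in neutrophil-like cells, at 198 and 423 CPM with a ratio of 1.07, and ratios of 1.42 in Kupffer-like, 2.16 in macrophage-like and 1.73 in monocyte-like cells. *Casp4*, an inflammatory caspase, was past it in macrophage-like (1.16), monocyte-like (1.27), cDC1-like (2.18) and NK-like (1.16) cells. Of the list, 3 of 22 measured genes were past 2-fold higher and 0 lower in macrophage-like cells, and 1 higher and 5 lower in neutrophil-like cells, where 3.54% of all genes were lower. The 5 were *Elane* (74.4 and 6.46 CPM), *Prtn3*, *Aim2*, *Gsdme* and *Nlrp1b*, the first pair being protease genes of neutrophil precursors. *Prtn3* was past 2-fold higher in macrophage-like (3.00), Kupffer-like (1.47), B-like, T-like and tumor-like cells, and *Elane* and *Ctsg* were in tumor-like cells. The part of free RNA in the values of this list was not tested. The median ratio of the list was −0.27 in neutrophil-like and 0.07 in macrophage-like cells. In tumor-like cells 4 of 20 measured genes were past 2-fold higher and 0 lower, where 2.55% of all genes were higher. cDC2-like cells had 1 higher and 3 lower of 19 (2.48% and 2.73% of all genes), and monocyte-like cells 2 and 2 of 22. The other classes had 1 or 2 higher and 0 or 1 lower. Of 22 signal transduction genes, 2 to 5 were past 2-fold higher in each of the 12 classes and 0 lower. They were *Tnfaip3*, *Nfkbiz*, *Nfkbia* and *Zc3h12a*, which feed back on NF-κB or cytokine transcripts, and *Irak2* in monocyte-like cells (1.04). In neutrophil-like cells *Tnfaip3* had 140 and 2834 UMIs and a ratio of 2.50. The median of this list lay between −0.24 and 0.25.

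Among 6 receptor partners and binders, *Il18bp*, the soluble inhibitor of IL-18, was past 2-fold higher in neutrophil-like (35.5 and 100.3 CPM, ratio 1.38), monocyte-like (27.8 and 99.5 CPM, ratio 1.67), cDC1-like (1.16), T-like (1.02) and tumor-like (2.20) cells. In Kupffer-like cells, where its level was highest, it was at 1073 and 937 CPM, a ratio of −0.20. Kupffer-like cells were 5.36% and 9.61% of kept cells, and the part of free RNA in the *Il18bp* values of other classes was not tested. *Il1rl2*, the receptor chain of the IL-36 ligands, was past 2-fold lower in cDC2-like cells (55 and 9 UMIs, 13.9 and 3.48 CPM, ratio −1.16), where 2.73% of all genes were. *Il1rap*, the accessory chain of the IL-1 and IL-33 receptors, was highest in neutrophil-like cells, at 196 and 172 CPM, and not past 2-fold in any of the 12 classes. *Il18rap*, the accessory chain of the IL-18 receptor, was at 159.6 and 184 CPM in NK-like cells, a ratio of 0.20. Of 9 other ligand symbols of the family 5 were found, and only *Il1f9*, the gene of IL-36γ, had enough UMIs. It was a neutrophil-like transcript at 332 and 248 CPM (ratio −0.41), unlike *Il1b* not higher there in the anti–PD-1 library. In tumor-like cells it was past 2-fold higher, on 11 and 36 UMIs (1.44 and 10.4 CPM, ratio 1.25), as were 2.55% of all genes. Neutrophil marker UMIs were also more frequent in these cells with anti–PD-1. In macrophage-like cells the *Il1f9* ratio was 0.61.

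Genes known to respond to IL-1 in fibroblasts were higher in many classes. Of 18 such genes, 9 of 15 measured were past 2-fold higher in CAF-like cells (median ratio 1.94), 7 of 12 in endothelial-like (1.26), 10 of 15 in tumor-like (1.44), 12 of 15 in macrophage-like (2.56), 9 of 14 in Kupffer-like (1.70), 8 of 13 in neutrophil-like (1.22) and 9 of 15 in T-like cells (1.13). The counts were 11 of 11 in NK-like (1.75), 10 of 13 in cDC1-like (1.97), 8 of 13 in cDC2-like (1.26), 8 of 14 in B-like (1.31) and 7 of 15 in monocyte-like cells (0.97). The medians of all genes in the 12 classes lay between −0.23 and −0.01. In CAF-like cells *Cxcl1*, a neutrophil attractant, was at 8.03 and 275 CPM and *Il6* at 6.28 and 99.1 CPM, ratios of 4.43 and 3.21. *Saa3*, an acute-phase gene, was past 2-fold lower in Kupffer-like (331 and 128 CPM) and cDC2-like cells, as were 0.188% and 2.73% of all genes, and higher in macrophage-like cells (90.9 and 778 CPM). In macrophage-like cells *Ptgs2*, the prostaglandin synthase COX-2, was at 8.51 and 256 CPM, a ratio of 4.27. These genes also respond to other signals, and *Nfkbiz*, *Tnfaip3* and *Zc3h12a* stand in the signal transduction list too. The part of IL-1 or of free RNA in their values was not tested.

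Immediate-early and heat shock genes, which tissue dissociation is known to induce, moved in the same direction. Of 14 such genes, 13 were past 2-fold higher in CAF-like, 10 in macrophage-like, endothelial-like and tumor-like, 9 in Kupffer-like and monocyte-like and 8 in cDC2-like cells. A further 9 were in cDC1-like, 6 in NK-like, 4 in T-like and 3 in B-like cells, and in neutrophil-like cells 3 were past 2-fold higher and 1 lower. The median ratio of the list was 2.02 in CAF-like, 1.67 in tumor-like, 1.61 in endothelial-like, 1.39 in macrophage-like, 1.21 in cDC1-like, 1.19 in Kupffer-like, 1.16 in monocyte-like, 1.13 in cDC2-like, 0.79 in NK-like, 0.71 in B-like, 0.64 in T-like and 0.53 in neutrophil-like cells. Its part in the *Il1b*, *Il1a*, *Il1rn* and *Il33* values was not tested. Cells with a Y-linked UMI and no *Xist* were taken as male in both libraries, although free RNA could place female cells without detected *Xist* among them. In these cells the *Il1b* ratio was 1.05 (0.89 to 1.21) in neutrophil-like cells (77 and 1178 cells), 2.81 (2.59 to 3.04) in Kupffer-like and 3.18 (3.00 to 3.35) in macrophage-like cells, and the *Il1r2* ratio in neutrophil-like cells 1.43.

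By the correlation of log2 levels over 24 sums of class and library, among 13840 genes, the pattern of *Il1b* was most like those of *Hcar2* (r = 0.96), *Nlrp3* (0.96) and *Cxcl2* (0.94). That of *Il1a* was most like *Il18bp* (0.89), *Gbp2b* and *Oasl1*, that of *Il1rn* like *Cxcl2* (0.90), *Trib1* and *Cd14*, and that of *Il1r2* like *Trem1* (0.90), *Mxd1* and *Slfn4*. *Il1r1* was closest to *Cyp2d22* (0.97), *Tshz2* and *Cpe*, *Il18* to *Slc7a8* (0.93), *4930455G09Rik* and *Nr1h3*, and *Il18r1* to *Gm2682* (0.97), *Cxcr6* and *Cd226*. *Il33* was closest to *Tbx2* (0.94), *Pdia5* and *Dbn1*, and *Il1rl1*, on the fewest UMIs, to *B4galnt4* (0.81), *Aqp3* and *Slc28a2b*. The 24 sums come from only 2 libraries and share their free RNA, so these correlations are a description.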

How the data were processed

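Single-cell RNA-seq was read from 2 libraries, shYT with PBS and shYT with anti–PD-1, prepared with the Singleron GEXSCOPE kit from digested livers. The deposited values are UMI counts, whole numbers for each gene in each cell barcode, which the authors made with the Singleron software on mm10 and not further normalized. The version, annotation and handling of multimapping reads are not given in the sources used here. The submitters' processing notes also name Seurat 4.3, whose output was not used here. The study counts several per group, and how these were combined into 1 library is not given in the sources used here.

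Barcodes were kept with 500 to 5000 genes detected and no more than 10% of UMIs mitochondrial. Each cell went to the class whose marker UMIs most exceeded the number its depth gives (0.5 added to that number), with at least 3 marker genes detected. This scoring was chosen after seeing the data, and class names can differ from those of the study. UMIs were summed per class and library. Levels have exact Poisson and shares exact Clopper-Pearson 95% intervals, and log2 ratios combine both Poisson intervals, all for counting error only. A ratio was read where both libraries together held at least 20 UMIs, and counts of ratios past 2-fold use the 12 classes with at least 100 cells in each library. Shares of cells were compared after thinning each cell to 1000 UMIs. No p-value was computed. All 9 members are named, and list genes are named by size of ratio or by role. The members and lists were chosen with earlier results of these data known. The automatic doublet threshold marked 0 cells, so doublets stayed in, and an alternative left out the 5% of cells with the highest scores. Gate and ratio were tested on simulated data. Gene positions are from GENCODE, where 32445 of 32589 gene IDs (99.6%) were found, and promoter windows from RefSeq on GRCm38.p6. Tools were numpy 2.4.6, scipy 1.17.1, pandas 2.3.3, scanpy 1.11.5, igraph 0.11.9 and matplotlib 3.10.9.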

Additional observations from a re-analysis of the deposited data

How the results depend on the processing

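With 1 library per group, the alternatives show how far a value depends on cell selection and scaling, not how it varies between animals, and sex and treatment cannot be told apart beyond cells with a Y-linked UMI. No paired analysis was possible because each group is a single library. Of 163 recomputed values of the main results 117 lay within the counting interval of the value reported and 46 outside it, and 3 had the opposite sign. Of 106 values for other named genes 82 lay within, 24 outside and 1 had the opposite sign. The 4 values of opposite sign had intervals that span 0. The causes were not tested.

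Scaling to the median gene gave ratios of 1.62 for *Il1b*, 0.85 for *Il1rn* and 1.83 for *Il1r2* in neutrophil-like cells, of 3.14 for *Il1b*, 2.30 for *Il1a* and 2.02 for *Il1rn* in macrophage-like cells, of 3.43 for *Il1b* in monocyte-like cells, of 0.26 for *Il18* in Kupffer-like cells and of −0.37 for *Il18r1* in T-like cells. It raised the share of higher among all genes past 2-fold from 57.5% to 70.1%, and a pseudocount of 1 CPM lowered it to 43.2%. That pseudocount gave 3.22 for *Il1a* in neutrophil-like cells and 2.29 and 1.95 for *Il1a* and *Il1rn* in macrophage-like cells. Without an upper limit on genes the ratio of *Il1b* was 2.84 in macrophage-like and 3.07 in monocyte-like cells, and that of *Il1rn* 1.74 in macrophage-like cells. A stricter gate gave 3.04 for *Il1b* in monocyte-like cells. Clusters in place of the gate gave 3.21 for *Il1b* and 1.98 for *Il1rn* in macrophage clusters and 1.84 for *Il1b* in monocyte clusters. Leaving out cells near the gate gave 3.04 for *Il1b* and 1.98 for *Il1a* in macrophage-like cells.

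Thinning to 1000 UMIs gave 3.57 for *Il1b* in monocyte-like cells, 1.88 for *Il1a* and 2.08 for *Il1rn* in macrophage-like cells, −0.26 and −0.70 for *Il18r1* in NK-like and T-like cells and −0.033 for *Il1r1* in CAF-like cells. Only cells with a Y-linked UMI and no *Xist* gave 1.05, 3.25, 0.38 and 1.43 for *Il1b*, *Il1a*, *Il1rn* and *Il1r2* in neutrophil-like cells, 3.18 and 2.03 for *Il1b* and *Il1rn* in macrophage-like cells, 3.49 for *Il1b* in monocyte-like cells, 0.50 for *Il18* in Kupffer-like cells, −0.80 for *Il18r1* in T-like cells, 2.43 for *Il33* in CAF-like cells and 2.62 for *Il1rl1* in regulatory T cells, the last, of opposite sign, on 0 and 28 UMIs in 24 and 175 cells. Cells with no neutrophil marker UMI gave 3.03, 1.90 and 2.21 for *Il1b*, *Il1a* and *Il1rn* in macrophage-like cells, 0.91 for *Il1b* in monocyte-like cells, −0.085 for *Il18r1* in NK-like cells, 0.16 for *Il33* and −1.57 for *Il1r1* in CAF-like cells, with 3 and 1 UMIs in 26 anti–PD-1 cells. There *Il18* in Kupffer-like cells (−0.21) and *Il1rl1* (0.07) and *Il1r2* (0.21) in regulatory T cells were among the 12 values of 65 that changed sign, each with an interval that spans 0.

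The number of member and class combinations past 2-fold, 42 in the main processing, was 25 after thinning, with 45 measured, and 17 in Y-linked cells, with 36 measured. In cells with no neutrophil marker UMI it was 29 of 53 measured, with 24 higher and 5 lower (3 of these with 0 anti–PD-1 UMIs), against 38 higher and 1 lower of 83 in all cells of the same 11 classes. It lay between 40 and 50 under the other alternatives. Over all genes, 3538 values were higher and 2610 lower past 2-fold of 142462 in the main processing. These were 2575 and 2427 of 73213 after thinning and 2231 and 1124 of 55408 in Y-linked cells. With a pseudocount of 1 CPM, which gave the 50, they were 5601 and 7359 of 142462. For cells with no neutrophil marker UMI the share over all genes is not given here. The share of *Il1b* UMIs in neutrophil-like cells of the PBS library was 43.4% by clusters, 43.6% without the highest doublet scores, 73.1% after thinning, 32.4% in Y-linked cells and 47.4% without cells near the gate. In the anti–PD-1 library it was 49.4% without an upper limit on genes, 50.9% with the stricter gate, 52.6% by clusters, 75.3% after thinning, 36.8% in Y-linked cells and 58.5% without cells near the gate. With all UMIs 71.4% and 92.7% of neutrophil-like cells held *Il1b*.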
